A study of Mus musculus with 24 samples.

Results

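The non-fibrillar collagen genes are those collagen genes whose protein chains build networks, filaments, anchoring structures or membrane proteins rather than striated fibrils. They were chosen by symbol: of the 44 collagen symbols in the count files, 10 fibrillar genes (Col1a1, Col1a2, Col2a1, Col3a1, Col5a1, Col5a2, Col5a3, Col11a1, Col11a2 and Col27a1) were left out, which left 34 of 55291 gene names. Col24a1 stayed in by this rule although its protein is usually classed as fibrillar. All 34 were described, and the 26 with a mean of at least 10 raw counts over the libraries were tested, among 15149 genes tested in all. At that minimum, Col4a4 lay just inside with a mean of 12.5 counts and Col22a1 just outside with 8.17.

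Collagens are trimers of alpha chains with a repeated glycine motif. Type IV chains form the sheet of the basement membrane, the thin matrix layer under epithelia and endothelia, which in the lung is shared by the alveolar wall and its capillaries. Type VI chains form beaded filaments near cells, type VII anchors basement membranes to the stroma beneath, types VIII and X form short-chain lattices, the FACIT group (fibril-associated collagens with interrupted triple helices) sits on fibrils, the multiplexins (types XV and XVIII) join basement membranes to their surroundings, and types XIII, XVII, XXIII and XXV span the plasma membrane. Fibroblasts are a main source of type VI and of several FACIT chains, and TGF-β1 is the best known inducer of matrix genes in them.

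The cells were mouse pulmonary fibroblasts from WT C57BL/6 mice and from mice labelled TLR4-/- (in the study's methods also on a C57BL/6 background), which were 4 to 8 weeks old. Each group of cells came from 3 to 4 pooled lungs and was used at passages 3 to 6. After a night in reduced-serum medium they received PBS, 1 μg/ml rmCIRP (recombinant mouse cold-inducible RNA-binding protein, which outside the cell is a ligand of the receptor TLR4), 2 ng/ml rmTGF-β1, or both proteins, for 24 h. There were 3 libraries in each of these 8 groups, 24 in all. The labels do not say whether the 3 came from separate cultures, so that p-values measure only the spread between these libraries, which may be technical.

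Total counts on genes ranged from 29853346 to 39664606 per library. Tlr4 mRNA was not lower under the TLR4-/- label: it was between 702 and 941 normalized counts there and between 630 and 802 in WT libraries. With PBS it was higher under the label by 0.27 on the log2 scale (SE 0.06, edgeR adjusted p = 0.00062). In WT cells the cytokine gene Il1b had a mean of 17.1 normalized counts with PBS and 16076 with rmCIRP. Under the label its means were 72.8 and 56.2. The genotype itself was not tested, and the label TLR4-/- is kept only as a name. Fibroblast markers were high in every group, with a summed level of 331528 to 389570 normalized counts over 10 genes. Single markers among them differed between the genotype labels, as given below, which the sum does not show. The 13 macrophage markers summed to between 78047 and 98482 in WT libraries and to between 327578 and 422024 under the TLR4-/- label. The 10 epithelial markers summed to between 173 and 397 in WT libraries and to between 527 and 705 under the label. Of these 10, Sftpb and Nkx2-1 had at most 3 counts in every library. Xist, expressed from the inactive X chromosome of female cells, was at 3 counts or fewer in the WT libraries and at 4403 or more under the TLR4-/- label, while the Y-linked Ddx3y was at 3509 to 4642 normalized counts in WT libraries and at 1847 to 2532 under the label. Both kinds of transcript were thus present under the TLR4-/- label, and the sex of the pooled mice, which the labels do not give, cannot be told apart from the genotype label. In bulk RNA, fewer cells of a type and less RNA per cell cannot be told apart. Libraries of a group are numbered 1 to 3. Library 3 with both proteins under the TLR4-/- label stood apart from its replicates: its chi-square per degree of freedom was 50.6 against library 1 and 34.6 against library 2, where the other 22 replicate pairs lay between 2.67 and 17.2. Highest among these 22 were 13.1 and 17.2, both of library 3 with rmTGF-β1 under the label, against its libraries 1 and 2. Those libraries 1 and 2 had 3.84 between them. Results that rest on library 3 with both proteins are given with and without it.

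The collagen IV chains of the ordinary basement membrane dominated. Per kilobase of exon, in normalized counts (counts divided by a size factor for each library), WT cells with PBS had a mean level of 17152 for Col4a1 and 12680 for Col4a2, the chains that assemble together in most basement membranes. Col12a1, a FACIT chain of dense connective tissue, followed with 3018, Col6a1 with 1764 and Col6a3 with 1452. These ranges did not overlap: Col6a1 lay between 1657 and 1837 per kilobase in the 3 libraries and Col6a3 between 1441 and 1472. Of all counts on the 34 genes, Col4a1 and Col4a2 held between 66.7% and 72.4% over the 24 libraries, and with Col12a1 between 82.2% and 86.4%. The 34 genes together held 0.711% to 1.0% of the counts on all genes and 28.7% to 32.9% of those on collagen genes.

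A middle tier followed. The FACIT genes Col16a1 (726 per kilobase) and Col14a1 (635), the short-chain Col8a1 (589), the X-linked type IV chain Col4a5 (510), Col6a2 (446), Col7a1 (333), the multiplexins Col18a1 (197) and Col15a1 (187), Col28a1 (67.1) and Col4a6 (32.7) came next. Col18a1 and Col15a1 were neighbours whose ranges overlapped, with 185 to 204 and 172 to 200 per kilobase. From Col23a1 (20.7) through Col10a1, Col20a1, Col24a1, Col17a1, Col13a1, Col9a3, Col8a2, Col19a1 and Col4a3 to Col4a4 (1.08), levels were low. Many neighbours there overlapped, for example Col17a1 at 8.14 to 8.65 and Col13a1 at 6.29 to 9.94 per kilobase. The 8 genes that were not tested, Col22a1, Col25a1, Col26a1, Col6a4, Col6a5, Col6a6, Col9a1 and Col9a2, had means between 0.035 (Col6a6) and 1.08 (Col9a2) per kilobase in WT cells with PBS. The tested type VI genes were thus the classic trio, and of the cartilage collagen IX genes Col9a3 was the one tested.

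**Figure D1:**
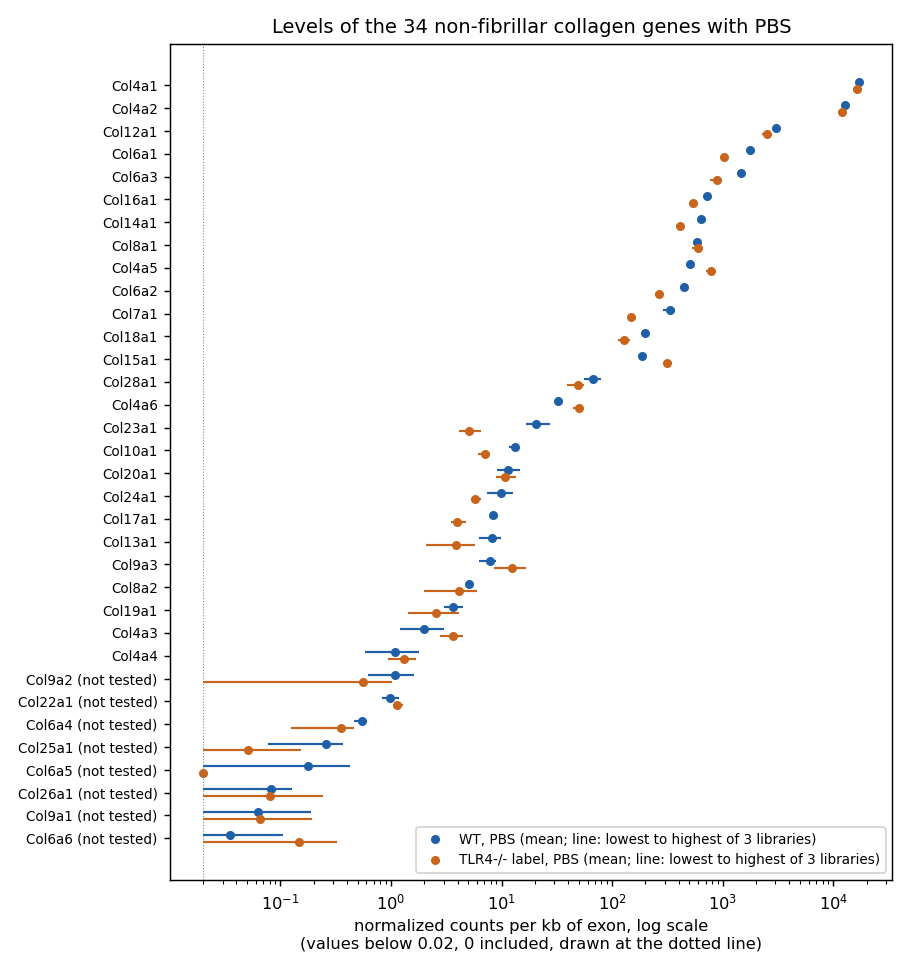
Mean normalized counts per kilobase of exon (x axis, log scale) of the 34 genes (y axis) in the PBS libraries, WT in blue and TLR4-/- label in orange, with lines from the lowest to the highest of 3 libraries. Col4a1 and Col4a2 stand at the top with 17152 and 12680 in WT cells, and the 8 untested genes at the foot, near or under 1 per kilobase.

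Chains that share a trimer kept close ratios. The ratio of Col4a1 to Col4a2 normalized counts lay between 1.5 and 1.57 over all 24 libraries, that of Col6a1 to Col6a2 between 1.9 and 2.16, and that of Col4a5 to Col4a6, the X-linked pair, between 12.4 and 15.4. Col4a1 and Col4a2 lie head to head, and their annotated exons overlap by 22 bases on opposite strands, 0.295% of the Col4a1 exon length. Col6a3 did not hold its ratio to Col6a1, which ranged from 1.67 to 3.46 and moved with the treatments as described below. Some low genes share exon bases with a neighbour, most of all Col9a3 (6.07% of its exon length with Tcfl5) and Col4a3 (5.65% with C430014B12Rik), and the strand setting of the counting was not given, so reads of such pairs may be mixed.

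Of 5 genes on which the treatment results turn, Col7a1, Col6a3 and Col16a1 were the 3 that rose with rmTGF-β1 under both genotype labels. Under the TLR4-/- label the groups of Col6a3 overlapped. Col13a1 and Col23a1 rose most with rmCIRP in WT cells. The upstream sequences of these 5 genes are shown here. Each is the 250 bases before the annotated start, 5′ to 3′ on the gene's strand, from RefSeq on GRCm38.p6. Col7a1 is at chr9:108953336-108953585 (plus strand), Col6a3 at chr1:90843972-90844221 (minus), Col16a1 at chr4:130047590-130047839 (plus), Col13a1 at chr10:61979109-61979358 (minus) and Col23a1 at chr11:51289670-51289919 (plus). Capitals mark the SMAD-binding letters CAGAC or their reverse complement GTCTG.
Col7a1: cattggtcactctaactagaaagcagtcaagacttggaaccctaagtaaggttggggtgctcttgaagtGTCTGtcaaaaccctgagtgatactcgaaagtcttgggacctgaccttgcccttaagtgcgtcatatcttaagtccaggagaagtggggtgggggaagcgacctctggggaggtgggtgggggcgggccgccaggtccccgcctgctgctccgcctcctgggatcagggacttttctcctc
Col6a3: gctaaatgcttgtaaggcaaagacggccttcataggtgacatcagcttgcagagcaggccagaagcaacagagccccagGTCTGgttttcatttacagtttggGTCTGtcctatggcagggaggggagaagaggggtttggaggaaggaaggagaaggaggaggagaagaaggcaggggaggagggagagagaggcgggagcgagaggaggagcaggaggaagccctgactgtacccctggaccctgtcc
Col16a1: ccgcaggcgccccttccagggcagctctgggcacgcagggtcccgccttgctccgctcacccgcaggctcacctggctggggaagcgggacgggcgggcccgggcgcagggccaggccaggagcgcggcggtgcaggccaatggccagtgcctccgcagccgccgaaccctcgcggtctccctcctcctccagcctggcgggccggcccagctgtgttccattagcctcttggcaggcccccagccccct
Col13a1: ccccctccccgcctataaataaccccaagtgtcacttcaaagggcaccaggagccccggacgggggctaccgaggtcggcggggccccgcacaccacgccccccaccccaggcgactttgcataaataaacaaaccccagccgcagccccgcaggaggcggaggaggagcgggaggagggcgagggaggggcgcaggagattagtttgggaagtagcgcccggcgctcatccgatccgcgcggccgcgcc
Col23a1: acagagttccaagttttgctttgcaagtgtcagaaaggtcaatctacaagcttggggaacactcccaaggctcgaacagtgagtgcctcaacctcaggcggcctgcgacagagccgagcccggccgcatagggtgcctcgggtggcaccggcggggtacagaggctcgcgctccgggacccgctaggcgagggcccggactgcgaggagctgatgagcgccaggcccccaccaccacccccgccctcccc

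The SMAD letters, whose factor carries the TGF-β1 signal to DNA, began 181 bases before the start in Col7a1 and 171 and 147 bases before it in Col6a3, and were not in the windows of Col16a1, Col13a1 and Col23a1. Genes that rose with rmTGF-β1 under both labels thus include windows with and without these letters. They are common letters. On either strand they were in 42.2% of the 32851 promoters in the table and in 12 of the 28 member genes it holds. The AP-1 letters TGANTCA were in 6.75% of all promoters and in 1 member (Col6a1), and the NF-κB consensus, the element of the inflammatory transcription factor, was in 3.9% of all and in 3 members (Col6a4, Col9a1 and Col9a2, none of them tested). No overlap with another searched motif occurred in the 5 sequences printed. The share of members with the SMAD letters was close to that of all promoters, and a match of letters does not show a bound site.

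To examine the effect of rmCIRP, WT cells with rmCIRP were compared with WT cells with PBS. rmCIRP raised the transmembrane collagens Col13a1 and Col23a1 and lowered all 3 tested type VI genes and the multiplexin Col15a1. Of the 26 genes, 5 rose and 12 fell by edgeR's quasi-likelihood test at an adjusted p under 0.1. Of all 15149 genes, 23.3% rose and 23.6% fell in this comparison, against 5 and 12 of 26 here, and the median log2 fold change was -0.23 over the 26 and -0.0044 over all genes tested. Without the library that stood apart in the shared fit, 19 of the 26 passed in place of 17. The share of all genes is not given for that fit.

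Col13a1, a transmembrane collagen of cell-matrix junctions, had 39.5, 29 and 45.8 normalized counts with PBS and 142, 93.6 and 176 with rmCIRP. The groups did not overlap, and the log2 fold change was 1.86 ± 0.5 (SE, n = 3 per group, adjusted p = 0.0048). Col23a1, another transmembrane chain, had 96.2, 159 and 102 normalized counts with PBS and 259, 203 and 290 with rmCIRP, a log2 fold change of 1.09 ± 0.25 (edgeR adjusted p = 0.0016). All 3 libraries with rmCIRP again lay above those with PBS. The third tested transmembrane gene, Col17a1, the hemidesmosome collagen of epithelia, changed by 0.46 ± 0.23 and did not pass (adjusted p = 0.12).

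Col15a1, a chain of the outer face of basement membranes, had 1089, 1273 and 1194 normalized counts with PBS and 605, 563 and 527 with rmCIRP, a fall of 1.06 on the log2 scale (SE 0.1, edgeR adjusted p = 2.1e-08). Every rmCIRP library lay far below every PBS library. The other multiplexin, Col18a1, which carries the endostatin fragment, rose instead, by 0.39 ± 0.11 (adjusted p = 0.0064). Col8a2, a short-chain collagen, was low: 22.1, 23 and 23.9 normalized counts with PBS against 12.7, 13.4 and 5.93 with rmCIRP. It fell by 1.1 on the log2 scale (SE 0.34, edgeR adjusted p = 0.013), and its partner Col8a1, at a far higher level, by 0.29 (SE 0.08, adjusted p = 0.0087).

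Type VI collagen fell through all its tested chains. Col6a3 went from a mean of 17368 ± 207 to 9884 ± 633 normalized counts (SD, n = 3), a fall of 0.8 on the log2 scale (SE 0.06, edgeR adjusted p = 7.4e-10). Col6a1 fell by 0.44 (adjusted p = 1.5e-05) and Col6a2 by 0.48 (adjusted p = 1.8e-05). The ratio of Col6a3 to Col6a1 was 2.15 to 2.43 with PBS and 1.67 to 1.83 with rmCIRP, and these ranges did not overlap. An exact two-sided permutation test of the ratio gave p = 0.1, the smallest that 3 against 3 libraries allow. Ranges that do not overlap fix this value, so the test adds nothing to them and no conclusion is drawn from it.

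Among the type IV genes, Col4a5 and Col4a6 each fell by 0.34 (edgeR adjusted p = 0.0024 and 0.012), and Col4a1 by 0.12 (adjusted p = 0.048). The fall of Col4a1 did not pass without PBS library 2 or rmCIRP library 2 (log2 changes of -0.1 to -0.11). Col4a2 changed by -0.1 ± 0.05 (adjusted p = 0.12), and Col4a3 and Col4a4, the low chains of the kidney and alveolar type, did not pass. Col7a1, the anchoring fibril chain, fell by 0.54 (SE 0.13, adjusted p = 0.0019). Of the 6 tested FACIT genes, Col9a3 rose by 0.76 ± 0.25 (adjusted p = 0.019) and Col20a1 by 0.61 ± 0.17 (adjusted p = 0.0061), Col14a1 fell by 0.27 (adjusted p = 0.00038) and Col16a1 by 0.2 (adjusted p = 0.00097). Col12a1, the highest FACIT gene, changed by -0.02 ± 0.09 and Col19a1 by 0.18 ± 0.29, and neither passed, nor did Col10a1, Col24a1 and Col28a1.

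Genes that work with these collagens were examined by list. Of 16 basement membrane partners (laminins, nidogens, perlecan, agrin and others), 2 rose and 5 fell, with a median of 0.0015 on the log2 scale, and of 10 collagen receptors 2 rose and 3 fell. Over all genes tested, 23.3% rose and 23.6% fell, so these counts say nothing particular of either list. Agrn, the heparan sulfate proteoglycan agrin, rose by 1.48 ± 0.11 (edgeR adjusted p = 4.5e-10) and the laminin chain Lama2 fell by 0.56 (adjusted p = 0.0002). The integrin chain Itga2, a collagen receptor subunit, rose by 1.42 ± 0.26 (adjusted p = 0.00016), and Itga1, which pairs with the same beta chain and is known for binding type IV collagen, fell by 0.67 (adjusted p = 0.00011). Markers of other cells moved in this comparison too. Of 13 macrophage markers 4 rose and 9 fell, their sum being 90357 to 98482 normalized counts with PBS and 79412 to 84678 with rmCIRP, and of 8 smooth muscle and pericyte markers 1 rose and 5 fell, with sums of 379445 to 408241 and 303022 to 336795. Of 6 epithelial markers tested 4 fell (Cdh1, Krt8, Krt18 and Krt19), with a low sum of 296 to 397 going to 186 to 235 and with Epcam, Sftpb and Nkx2-1 at 3 counts or fewer. Of 10 fibroblast markers 2 rose and 5 fell, of 5 mesothelial markers 2 fell, and of 8 endothelial markers 1 rose and 1 fell. Some lists share a gene. Krt19 is in the epithelial and the mesothelial list, and Cspg4 is in the receptor list and the smooth muscle and pericyte list. The part of these markers in the collagen results was not tested.

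The same question was asked in the presence of rmTGF-β1, by comparing WT cells with both proteins with WT cells with rmTGF-β1 alone. This comparison shares no library with the one against PBS. Here 4 of the 26 genes rose and 13 fell, where 24.1% of all genes tested rose and 21% fell, with a median log2 fold change of -0.14 over the 26 and 0.0062 over all. Of the 17 genes that passed against PBS, 16 passed here too, 94.1% of each list, and all 16 in the same direction. The same overlap was not counted over all genes tested, so it is not shown to be particular to these genes. Col9a3 passed only against PBS and Col4a2 only here.

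Col13a1 had 18.2, 18 and 19.4 normalized counts with rmTGF-β1 and 110, 73.1 and 97.5 with both, a log2 fold change of 2.35 ± 0.59 (SE, n = 3 per group, adjusted p = 0.0032). Col23a1 had 146, 81 and 115 normalized counts without rmCIRP and 383, 335 and 393 with it, a log2 fold change of 1.71 ± 0.25 (edgeR adjusted p = 1e-05). Every library with both proteins lay above every library with rmTGF-β1 alone for these transmembrane genes. Col15a1 went the other way, from 1597, 1339 and 1435 normalized counts to 781, 736 and 848, a fall of 0.87 (SE 0.1, edgeR adjusted p = 2.6e-07). Col18a1 rose by 0.85 ± 0.11 (adjusted p = 2e-06) and Col20a1 by 0.4 ± 0.16 (adjusted p = 0.05).

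Type VI collagen fell again, Col6a3 by 0.65, Col6a2 by 0.45 and Col6a1 by 0.36 on the log2 scale (edgeR adjusted p = 2.8e-08, 3.9e-05 and 0.00016). Of the 6 type IV genes 4 fell: Col4a5 by 0.34, Col4a6 by 0.26, Col4a1 by 0.14 and Col4a2 by 0.12 (adjusted p = 0.0027, 0.07, 0.025 and 0.077). The smaller falls were those of Col8a1 (0.19), Col16a1 (0.14), Col14a1 (0.27) and Col7a1 (0.29), and Col8a2 fell by 0.85 (adjusted p = 0.069, 0.018, 0.00037, 0.069 and 0.017). Without single libraries, 5 of these calls were lost in the same direction: Col20a1 (0.32 to 0.4, without rmTGF-β1 library 1 or library 2 or 3 with both), Col7a1 (-0.26 to -0.22, rmTGF-β1 3 or both 2 or 3), Col4a2 (-0.11 to -0.09, rmTGF-β1 2 or both 1 or 2), Col4a6 (-0.26 to -0.22, libraries 1 or 2 of either group) and Col8a1 (-0.21 to -0.17, rmTGF-β1 2 or 3 or both 1 or 3). Agrn (1.33 ± 0.11) and Itga2 (1.64 ± 0.26) rose here too (edgeR adjusted p = 3e-09 and 3.4e-05). Of the 13 macrophage markers 4 rose and 6 fell (sums of 82074 to 93843 and 78047 to 88082), and of the 8 smooth muscle and pericyte markers 2 rose and 5 fell, with sums of 391746 to 421295 normalized counts with rmTGF-β1 alone and 303492 to 319713 with both. Of the 6 epithelial markers tested 1 rose and 3 fell, of the 10 fibroblast markers 2 rose and 4 fell, and of the 5 mesothelial and 8 endothelial markers 2 each fell. Whether they bear on the collagen genes was not tested.

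**Figure D2:**
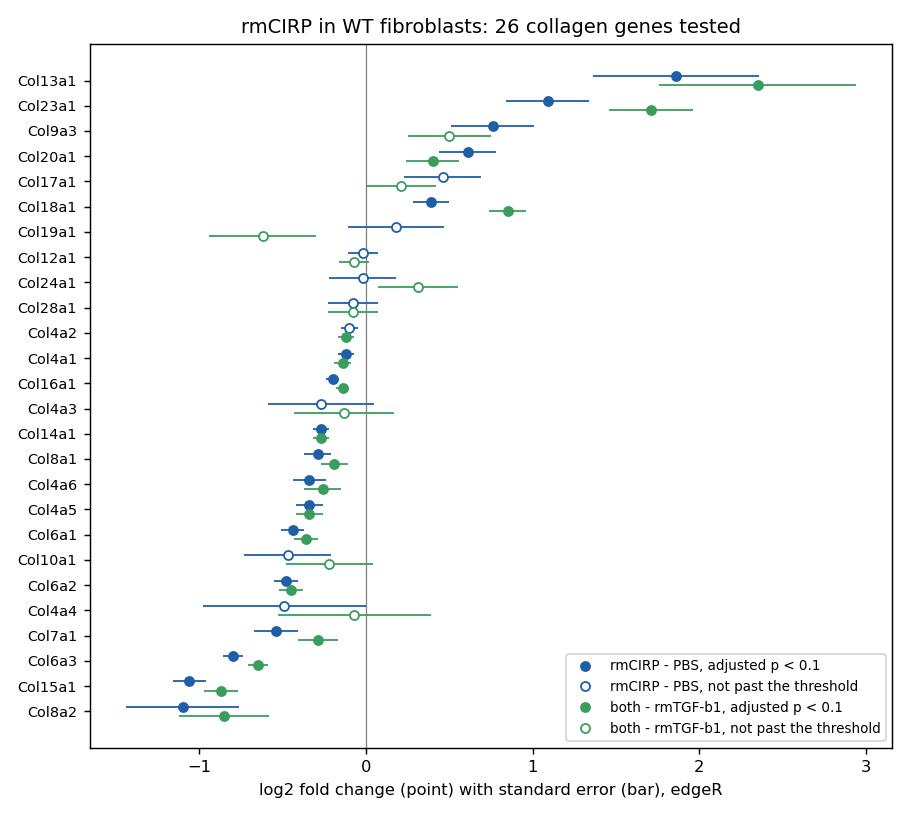
Log2 fold changes (x axis) of the 26 tested genes (y axis) in WT cells, blue for rmCIRP against PBS and green for both proteins against rmTGF-β1, with standard errors as bars and filled points for an adjusted p under 0.1. Col13a1 and Col23a1 lie far to the right in both comparisons and Col6a3, Col15a1 and Col8a2 to the left.

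Whether the rmCIRP effect in WT cells differed once rmTGF-β1 was present was tested as an interaction. None of the 26 genes passed by edgeR or by DESeq2, and 1 had an unadjusted p under 0.05, while 0.0528% of all genes passed. Over all 15149 genes, 882 had an unadjusted p under 0.05. Log2 differences ranged from -0.79 ± 0.44 (Col19a1) to 0.63 ± 0.36 (Col23a1). Col18a1 differed by 0.45 ± 0.15 (adjusted p = 0.61), and it passed when the fit held only the libraries compared.

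To examine the effect of rmTGF-β1 itself, WT cells with rmTGF-β1 were compared with WT cells with PBS. Col7a1 rose, Col24a1 fell, and the abundant type IV chains did not pass. Of the 26 genes, 6 rose and 2 fell, where 7.04% of all genes tested rose and 6.78% fell, and the median log2 fold change was 0.032 over the 26 and -0.012 over all.

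Col7a1 had 3846, 3456 and 2966 normalized counts with PBS and 5106, 5378 and 6130 with rmTGF-β1. All rmTGF-β1 libraries lay above all PBS libraries, and the log2 fold change was 0.7 ± 0.12 (SE, n = 3 per group, adjusted p = 0.00087). Col8a2 had 22.1, 23 and 23.9 with PBS and 33.3, 33 and 46.5 with rmTGF-β1, a log2 fold change of 0.72 ± 0.26 (edgeR adjusted p = 0.087). Col24a1 fell by 0.96 (SE 0.22, adjusted p = 0.0077), from 56.8, 97.8 and 72.9 normalized counts to 49.4, 29 and 38. These groups, too, did not overlap.

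The FACIT gene Col16a1 rose by 0.3 ± 0.04 (edgeR adjusted p = 0.00015), Col15a1 by 0.3 ± 0.09 (0.043), Col6a3 by 0.22 ± 0.06 (0.028) and Col17a1 by 0.61 ± 0.23 (0.094), and Col6a1 fell by 0.19 (SE 0.07, adjusted p = 0.068). The ratio of Col6a3 to Col6a1 was 2.15 to 2.43 with PBS and 2.76 to 3.23 with rmTGF-β1, without overlap. Its exact two-sided permutation p was again 0.1, the smallest possible, and decides nothing. None of the 6 type IV genes passed, with Col4a1 at 0.07 ± 0.05 and Col4a2 at 0.05 ± 0.05. Col4a6 came close, at -0.27 ± 0.1 (edgeR adjusted p = 0.1 after rounding), and its groups did not overlap. Of the 16 basement membrane partners 2 rose and 2 fell, Lama3 by 0.97 ± 0.25 (edgeR adjusted p = 0.015), and of the 10 receptors 2 rose and 2 fell, Cspg4, the NG2 proteoglycan that binds type VI collagen, by 0.98 ± 0.1 (adjusted p = 3.1e-06). Single libraries moved the count of 8: it was 5 without PBS library 1, PBS library 3 or rmTGF-β1 library 3, and 4 without rmTGF-β1 library 2 (Col7a1, Col15a1, Col16a1 and Col24a1). Without the library that stood apart it was 11. For these fits the share of all genes that passed is not given. Of the 6 epithelial markers tested none rose and 3 fell (Krt8, Krt18 and Krt19, with a median of -0.57 over the list and sums of 296 to 397 normalized counts with PBS and 187 to 249 with rmTGF-β1). Of the 10 fibroblast markers 1 rose and 2 fell, of the 13 macrophage markers 1 fell, of the 8 smooth muscle and pericyte markers 1 rose and 1 fell, of the 5 mesothelial markers 1 fell, and of the 8 endothelial markers none passed. The smooth muscle and pericyte marker that rose was Cspg4 and the mesothelial marker that fell was Krt19, each already counted in another list. Whether the markers bear on the collagen genes here was not tested. Col17a1 and Col8a2 were each lost without any of the 3 PBS libraries or rmTGF-β1 library 2 or 3 (log2 changes of 0.54 to 0.64 and of 0.53 to 0.81), and also with DESeq2. Col6a1 was lost without PBS library 2 or 3 or rmTGF-β1 library 2 or 3 (-0.17 to -0.16), Col15a1 without library 1 of either group (0.24 to 0.25) and Col6a3 without rmTGF-β1 library 2 (0.19).

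Under the TLR4-/- label, rmTGF-β1 against PBS shares no library with the WT comparison. Here 4 genes rose and 6 fell, where 12.2% of all genes tested rose and 13.5% fell, with a median of -0.011 over the 26 and -0.0087 over all. Col7a1 had 1481, 1510 and 1532 normalized counts with PBS and 3682, 2751 and 4329 with rmTGF-β1, a log2 fold change of 1.25 ± 0.13 (SE, n = 3 per group, adjusted p = 9.1e-07). The lowest rmTGF-β1 library lay well above the highest PBS library. Col24a1 fell by 0.89 (SE 0.27, edgeR adjusted p = 0.022), from 40.5, 40.3 and 49.8 normalized counts to 20.8, 26.6 and 23. Col19a1, a low FACIT gene, had 9.88, 28.6 and 13.9 with PBS and 5.68, 10.6 and 6.2 with rmTGF-β1, so that its groups overlapped although it passed (log2 fold change -1.21 ± 0.41, edgeR adjusted p = 0.041).

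Col16a1 rose by 0.48 ± 0.05 (edgeR adjusted p = 2.4e-07), Col20a1 by 0.58 ± 0.17 (0.02) and Col6a3 by 0.15 ± 0.06 (0.083). Col6a1 fell by 0.32, Col6a2 by 0.28, Col4a6 by 0.26 and Col4a5 by 0.23 on the log2 scale (edgeR adjusted p = 0.0018, 0.01, 0.062 and 0.048). As with Col19a1, the groups of Col6a3, Col4a5 and Col4a6 overlapped although these genes passed. The ratio of Col6a3 to Col6a1 again went up, from 2.17 to 2.43 with PBS to 3.12 to 3.46 (exact two-sided permutation p = 0.1, again fixed by the lack of overlap). Of all these, 5 genes passed under both genotype labels, in the same direction: Col7a1, Col16a1 and Col6a3 rose and Col24a1 and Col6a1 fell. They were 5 of the 8 genes that passed in WT cells and 5 of the 10 under the TLR4-/- label. This overlap, too, was not counted over all genes tested. Of the partners 3 rose and 4 fell, and of the receptors 3 rose and 2 fell, with Cspg4 at 1.15 ± 0.1 (edgeR adjusted p = 1.3e-07). Of the 10 fibroblast markers 2 rose and 4 fell, of the 13 macrophage markers 1 rose and 1 fell, of the 8 smooth muscle and pericyte markers 1 rose and 3 fell, of the 6 epithelial markers tested 1 fell and of the 5 mesothelial markers 2 fell, and their part was not tested. Without PBS library 2, and likewise without rmTGF-β1 library 3, the count of 10 collagen genes was 6 (Col7a1, Col16a1, Col20a1, Col24a1, Col6a1 and Col6a2). Log2 changes without the libraries on which a call turned were -0.68 to -1.09 for Col19a1 (PBS 2, rmTGF-β1 1 or 3), -0.19 to -0.23 for Col4a6 (PBS 1 or 2, rmTGF-β1 1 or 3), -0.18 to -0.2 for Col4a5 (PBS 1 or 2, rmTGF-β1 3), 0.06 to 0.17 for Col6a3 (PBS 2 or 3, rmTGF-β1 2 or 3) and 0.45 for Col20a1 (PBS 1).

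The difference between genotype labels in the rmTGF-β1 response did not pass for any of the 26 genes by edgeR or DESeq2, with 3 at an unadjusted p under 0.05, while 0.152% of all genes passed. Over all 15149 genes, 1590 had an unadjusted p under 0.05. For Col7a1 the TLR4-/- label response was 0.56 ± 0.18 above the WT response on the log2 scale (edgeR adjusted p = 0.24), and for Col19a1 the difference was -1.23 ± 0.5 (adjusted p = 0.37). The Col7a1 difference passed without rmTGF-β1 library 2 of the TLR4-/- label.

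**Figure D3:**
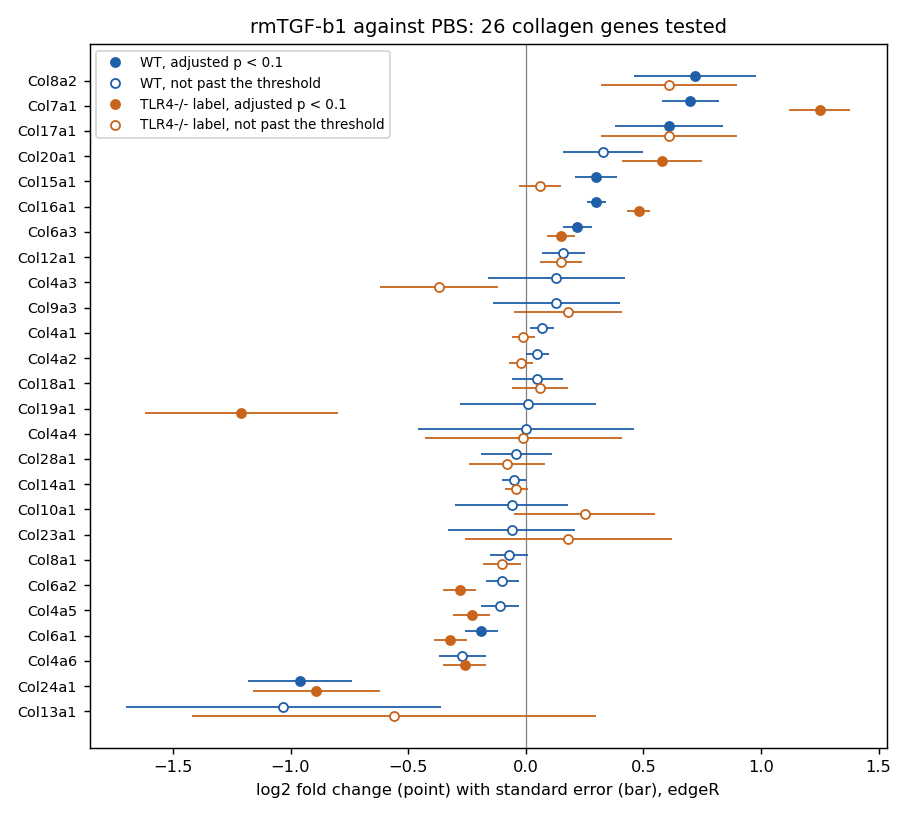
Log2 fold changes with rmTGF-β1 against PBS (x axis) of the 26 tested genes (y axis), WT in blue and TLR4-/- label in orange, with standard errors as bars and filled points for an adjusted p under 0.1. Col7a1 lies to the right under both labels, at 0.7 and 1.25, and Col24a1 to the left, at -0.96 and -0.89.

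Under the TLR4-/- label, rmCIRP against PBS gave no change that passed. None of the 26 genes did by edgeR or DESeq2, 1 had an unadjusted p under 0.05, and of all 15149 genes 0% passed, with 1088 at an unadjusted p under 0.05. Log2 fold changes of the 26 ranged from -0.66 ± 0.87 (Col13a1) to 0.32 ± 0.31 (Col17a1), with a median of 0.011. Col6a3 was at 0.06 ± 0.06 and Col15a1 at -0.16 ± 0.09.

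The difference between the labels in the rmCIRP response was tested directly. It passed for 14 of the 26 genes, 10 with a more positive and 4 with a more negative log2 response under the TLR4-/- label, where 16.3% and 17.2% of all genes tested did so. For Col13a1 the TLR4-/- libraries had 26.7, 9.54 and 16.9 normalized counts with PBS and 10.8, 6.5 and 16.7 with rmCIRP, and the log2 difference of responses was -2.52 ± 1.01 (edgeR adjusted p = 0.071). For Col23a1 they had 23.7, 37.1 and 25.9 with PBS and 27.5, 12.1 and 20.6 with rmCIRP, a difference of -1.61 ± 0.55 (edgeR adjusted p = 0.033). Both genes were low under this label with and without rmCIRP.

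Col15a1 had 2014, 2041 and 1938 normalized counts with PBS and 1762, 1678 and 1903 with rmCIRP under the TLR4-/- label, and its response differed by 0.89 ± 0.13 (edgeR adjusted p = 3.2e-05). Its groups lay close together there and did not overlap. Col6a3 differed by 0.86 ± 0.09 (edgeR adjusted p = 1.3e-07), Col6a2 by 0.42 ± 0.1 (0.0044) and Col6a1 by 0.41 ± 0.09 (0.0024), so that all tested type VI genes did. Col7a1 (0.65), Col4a5 (0.36), Col4a6 (0.36), Col16a1 (0.36), Col8a1 (0.34) and Col14a1 (0.27) differed in the same direction (edgeR adjusted p = 0.012, 0.026, 0.066, 0.00021, 0.036 and 0.011). Col9a3 (-0.86) and Col18a1 (-0.63) differed in the direction of Col13a1 (edgeR adjusted p = 0.07 and 0.0058). The calls of Col13a1 and Col9a3 were each lost without any of 6 of the 12 libraries (differences of -2.56 to -2.1 and -0.84 to -0.59), that of Col4a6 without any of 5 (0.27 to 0.36), that of Col23a1 without library 2 of either TLR4-/- group (-1.4 to -1.34) and that of Col8a1 without TLR4-/- PBS library 3 (0.26). Of the 13 macrophage markers, 6 differed with a more positive and 4 with a more negative response under the TLR4-/- label. Of the 8 smooth muscle and pericyte markers 4 were more positive and 2 more negative, and of the 10 fibroblast markers 4 and 1. Of the 6 epithelial markers tested 3 were more positive, with Cdh1 at 2.36, and of the 5 mesothelial markers 2. Their part in the collagen differences was not tested.

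**Figure D4:**
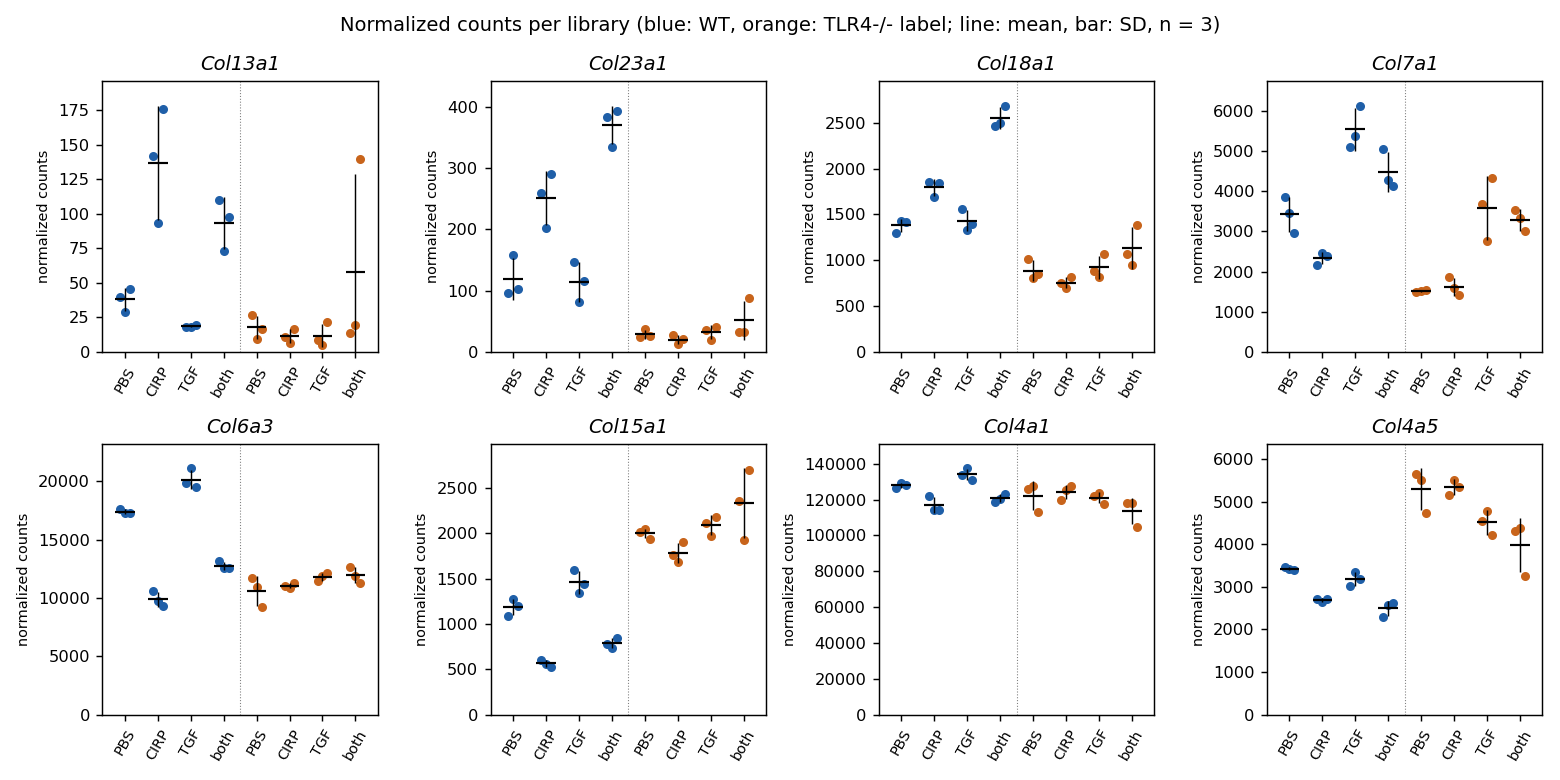
Normalized counts (y axis, from 0) in each library for 8 genes, by treatment (x axis), WT in blue and TLR4-/- label in orange, with the mean as a line and the SD as a bar (n = 3). Col13a1 and Col23a1 are higher in WT libraries with rmCIRP than in WT libraries without it, and Col6a3 and Col15a1 are lower. Among TLR4-/- label libraries, the one at 140 normalized counts of Col13a1 is the library that stood apart.

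With both proteins against rmTGF-β1 under the TLR4-/- label, the calls depended on the library that stood apart. With it, none of the 26 genes rose and 2 fell, Col4a6 by 0.34 (SE 0.1) and Col16a1 by 0.2 (SE 0.04, edgeR adjusted p = 0.09 and 0.062), where 2.19% of all genes tested rose and 1.31% fell. Col4a6 had 328, 379 and 308 normalized counts with rmTGF-β1 and 290, 286 and 223 with both, and Col16a1 had 5295, 4783 and 5199 against 4584, 4626 and 4087. Neither pair of groups overlapped, and the library that stood apart was the lowest for both genes. Without that library their log2 changes were -0.15 ± 0.04 (Col16a1) and -0.23 ± 0.09 (Col4a6), smaller but in the same direction. Then none of the 26 passed, 4 had an unadjusted p under 0.05, and 1 of all 15149 genes passed in place of 531. Over all genes, 1308 then had an unadjusted p under 0.05.

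Larger shifts were seen in genes that did not pass with all libraries. Col13a1 had 8.52, 5.31 and 21.3 normalized counts with rmTGF-β1 and 13.8, 19.6 and 140 with both. Its log2 fold change was 2.21 ± 0.69 with all libraries (edgeR adjusted p = 0.11) and 0.47 ± 0.53 without that library. Col23a1 went from 0.63 ± 0.39 to 0.01 ± 0.38 and Col12a1 from -0.25 ± 0.09 to -0.09 ± 0.06. With other libraries left out the count of 2 became 10 or 8 (library 1 or 2 with both proteins) and 0, 1 or 9 (library 1, 2 or 3 with rmTGF-β1). The share of all genes that passed in those fits is not given here, so the counts are not shown to be particular to the collagen genes. The library also held 1540 normalized counts of 8 summed endothelial markers, against 805 and 954 in its replicates, and 173385 of 8 smooth muscle and pericyte markers, against 248309 and 267702.

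The 2 genotype labels differed with PBS alone, before any added protein. Compared with WT, 5 of the 26 genes were higher and 13 lower under the TLR4-/- label, where 26.3% of all genes tested were higher and 22.4% lower. The median log2 fold change was -0.41 over the 26 and 0.00021 over all genes. All 3 tested type VI genes, Col7a1 and 2 of the 3 tested transmembrane genes were lower, and 3 of the 6 type IV genes and Col15a1 were higher.

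Col23a1 had 96.2, 159 and 102 normalized counts in WT libraries and 23.7, 37.1 and 25.9 under the TLR4-/- label, a log2 fold change of -2.03 ± 0.35 (SE, n = 3 per group, adjusted p = 6.3e-05). Col7a1 had 3846, 3456 and 2966 in WT libraries and 1481, 1510 and 1532 under the label, a log2 fold change of -1.17 ± 0.13 (edgeR adjusted p = 1.6e-07). Col17a1 was low in both, with 52, 48.9 and 50 against 28.6, 21.2 and 20.9, and a log2 fold change of -1.07 ± 0.28 (edgeR adjusted p = 0.0037). For each of these genes the 2 sets of libraries were well apart.

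Col6a1, Col6a2 and Col6a3 were lower by 0.75, 0.72 and 0.69 on the log2 scale, given as changes of -0.75 ± 0.07, -0.72 ± 0.07 and -0.69 ± 0.06 (edgeR adjusted p = 3.4e-09, 3.4e-08 and 3.8e-09). Of the FACIT genes Col14a1 (-0.61), Col16a1 (-0.41) and Col12a1 (-0.23) were lower (edgeR adjusted p = 3.1e-09, 1.2e-07 and 0.043), as were Col10a1 (-0.88), Col24a1 (-0.78), Col18a1 (-0.62) and Col28a1 (-0.42) with adjusted p = 0.013, 0.0067, 0.00012 and 0.029. Col4a3 (0.87), Col15a1 (0.77), Col9a3 (0.67), Col4a5 (0.64) and Col4a6 (0.64) were higher (edgeR adjusted p = 0.013, 4.1e-07, 0.035, 9.9e-07 and 1.2e-05). The libraries of Col4a3 and Col9a3 overlapped between the labels. Col4a1 and Col4a2 were each at -0.05 ± 0.05 and did not pass, unlike the other chains named. The calls of Col12a1 and Col28a1 were lost without WT library 2 or TLR4-/- library 3 (log2 changes of -0.22 to -0.17 and -0.29 to -0.27), and that of Col9a3 without library 3 of either label (0.41 to 0.53).

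Other genes moved with the label too. Of the 10 collagen receptors 7 were lower and none higher, Itga2 by -0.9 ± 0.28 and Itga1 by -0.64 ± 0.12 (edgeR adjusted p = 0.013 and 0.00014), and of the 16 partners 2 were higher and 8 lower, with Lamc3 at -1.37 ± 0.37 (adjusted p = 0.0047). All 13 macrophage markers were higher under the TLR4-/- label, with a median log2 fold change of 2.0 and sums of 338689 to 387269 normalized counts against 90357 to 98482, and in no group were the counts of any of the 13 at or below 3 throughout. Of 10 fibroblast markers 2 were higher and 5 lower. Among the lower were Pdgfra at -1.17 ± 0.12 and Thy1 at -1.14 ± 0.04 (edgeR adjusted p = 2.4e-08 and 7.2e-16). The higher ones were Dcn at 0.27 ± 0.06 and Vim at 0.10 ± 0.05 (edgeR adjusted p = 0.00091 and 0.093). Of 8 smooth muscle and pericyte markers 1 was higher and 6 lower. Of 8 endothelial markers 1 was higher and 6 lower, of 6 epithelial markers tested 4 were higher, and of 5 mesothelial markers 3 were higher and 1 lower. Their part in the collagen differences was not tested. Col4a5 and Col4a6 are X-linked, and over the 481 X-linked genes tested the median was -0.02 on the log2 scale, with 130 higher and 141 lower. Of these, 48 had a larger log2 fold change than Col4a5. Whether X linkage bears on Col4a5 and Col4a6 was not tested. The genotype label cannot be told apart from the pool of lungs the cells came from.

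**Figure D5:**
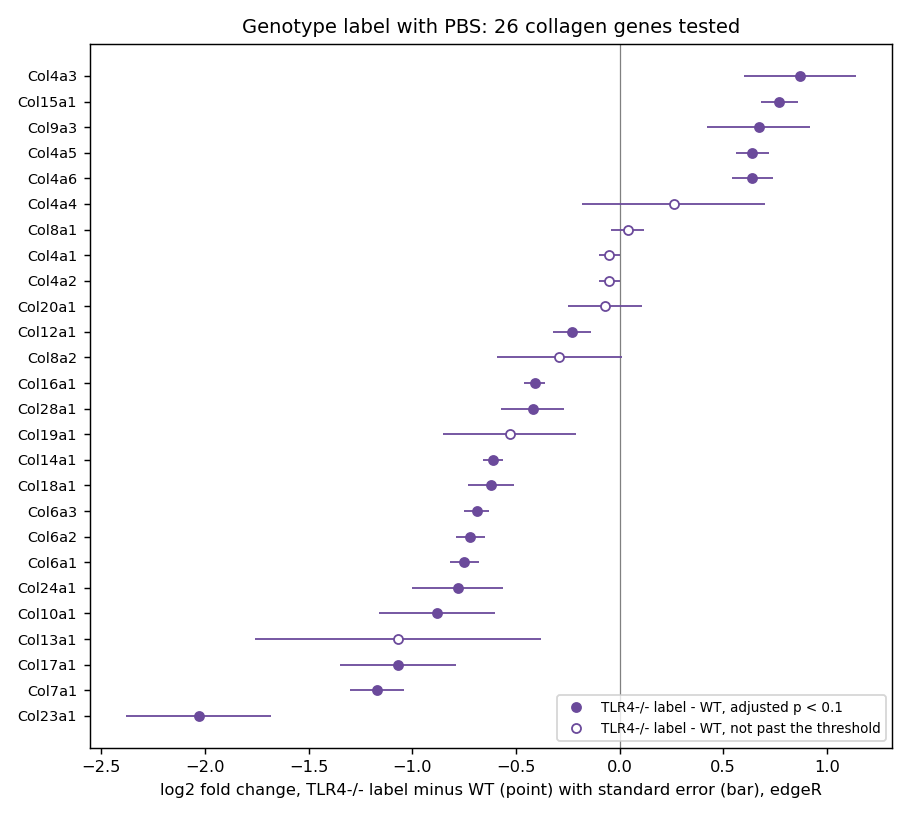
Log2 fold changes of the TLR4-/- label against WT with PBS (x axis) of the 26 tested genes (y axis), with standard errors as bars and filled points for an adjusted p under 0.1. Col23a1, Col7a1 and Col17a1 lie farthest to the left among the genes that passed, and Col4a3 and Col15a1 to the right.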

How the data were processed

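RNA-seq of 24 libraries of mouse pulmonary fibroblasts was analysed from the raw counts per gene symbol that the authors deposited. Per the labels and methods, total RNA was prepared with a stranded kit, checked with FastQC, aligned with STAR2 to mouse GENCODE and counted with ht-seq. The labels list the build NCBIM37, and no coordinates of the counted features are given. Promoter sequences and their coordinates are RefSeq's on GRCm38.p6, matched by symbol alone. The annotation release, tool versions and strand setting are not given in the sources used here. Lines tallying unassigned reads were left out.

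Genes with a mean of at least 10 counts over all libraries were fitted in R 4.3.3 with edgeR 4.0.16 (TMM scaling, 1 model with 8 group means, quasi-likelihood F-test), with Benjamini-Hochberg adjustment over all genes tested and the study's threshold of 0.1. Each SE is |log2 fold change| over √F. Normalized counts, used to describe levels, are counts divided by DESeq2 1.42.0 size factors. Exon lengths are from GENCODE M21. The steps were tested on simulated data. The 10 comparisons were repeated with DESeq2, other scalings, other filters, only the libraries compared, a replicate block and each library left out.

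Members are the genes named by the symbol rule. Values in every library are given for those that passed with a log2 change of at least 1 without overlap (otherwise the 3 largest changes), and at most 4 genes of each other list are named. Members and lists were chosen with earlier results of these data known, and the motifs after seeing which genes moved.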

Additional observations from a re-analysis of the deposited data

Results flagged for a closer look

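The response to rmCIRP differed between the genotype labels, by a test of the difference itself in edgeR, for 14 of the 26 genes tested. The log2 difference (TLR4-/- label minus WT) was -2.52 for Col13a1, -1.61 for Col23a1, -0.86 for Col9a3 and -0.63 for Col18a1, all of which rose with rmCIRP in WT cells. It was 0.89 for Col15a1, 0.86 for Col6a3, 0.65 for Col7a1, 0.42 for Col6a2, 0.41 for Col6a1, 0.36 for each of Col16a1, Col4a5 and Col4a6, 0.34 for Col8a1 and 0.27 for Col14a1, all of which fell in WT cells. Macrophage markers, which were higher under the TLR4-/- label, and the pool of lungs move with the label, and their part was not tested. The count was 10 to 16 with single libraries left out.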

How the results depend on the processing

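Of the 86 passes of a gene in a comparison, 60 passed under every alternative run and none changed direction. Over the alternatives other than leaving out a library, 592 of these values still passed and 10 did not, and over the fits without 1 library 602 passed and 82 did not. The log2 changes of genes that had not passed had the opposite sign in 187 of 2796 values. With single libraries left out, the number of collagen genes that passed ranged from 16 to 19 for WT rmCIRP against PBS, 4 to 11 for WT rmTGF-β1, 13 to 17 for WT both proteins, 6 to 12 for the TLR4-/- label with rmTGF-β1, 0 to 10 for the TLR4-/- label with both proteins, 15 to 19 for the label with PBS, 10 to 16 for the genotype difference in the rmCIRP response and 0 to 1 for that in the rmTGF-β1 response, and was 0 throughout for the TLR4-/- label with rmCIRP and for the WT interaction. For the alternative fits, the shares of all genes that passed are not given in this section. Leaving out the library that stands apart from every fit was an alternative chosen after seeing the data. For both proteins under the TLR4-/- label, the count of 2 became 4 with DESeq2, 10 with no filter on low counts, 4 with a replicate block and 0 with only the libraries compared. With no filter the counts of 0 became 1 for rmCIRP under the TLR4-/- label (Col18a1), 2 for the genotype difference in the rmTGF-β1 response (Col7a1 and Col15a1) and 2 for the WT interaction (Col18a1 and Col23a1), and with only the libraries compared the last became 1. The cause was not tested. The block on replicate number changed no other count by more than 1.5 times. Same-numbered libraries correlated between -0.148 and 0.411 (mean 0.0153). For the TLR4-/- label groups with rmTGF-β1 and with both proteins they were 0.232, 0.085 and 0.411, all positive. There the block moved the count from 2 to 4. The labels do not say that a replicate number marks a shared batch, so the main fit held no block. Precision was lowest for low genes: the SE of Col13a1 reached 1.11, in the genotype difference in the rmTGF-β1 response, and the 8 genes under the count minimum were not tested.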
